A study of Homo sapiens with 2 samples.

Results

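The regions described here are the ATAC-seq peaks of untreated 293T cells that lie over exons and away from transcription start sites. They were taken from the deposited control list as the peaks on chromosomes 1 to 22, X and Y that lie more than 1000 bp from every transcript start that GENCODE 44 (GRCh38) gives for protein-coding or lncRNA genes, and whose midpoint falls in an exon of such a gene. The rule gave 740 peaks out of 35515 control peaks on these chromosomes, of 36142 control peaks deposited, and out of 20572 distal control peaks. A peak was counted as shared when at least 1 bp of it overlapped any peak of the list from cells treated with methylglyoxal (MGO), and this status played no part in choosing the regions.

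ATAC-seq, in which the Tn5 transposase cuts and tags accessible DNA, was performed on 293T cells, an established human line of embryonic kidney origin that expresses the large T antigen of SV40. MGO was added at 0.5 mM and cells were harvested after 12 h, and 1 library of 50000 cells was analysed for each condition. For the control cells, a label names PBS as the treatment while the protocol text describes fresh medium with nothing added. The methods describe depth as equalized between the samples, but the lists give no read counts, so the number of reads behind a peak is unknown and every interval below covers counting error only, with peaks taken as independent.

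Promoters are prominent among the accessible sites of a human cell, and the distal ones are often enhancers or insulator sites in introns and between genes. Exons can carry such sites as well, since coding sequence may also hold the binding sites of transcription factors, and the long last exons of genes hold most of the 3' untranslated region (3' UTR). CpG islands are stretches in which the CpG dinucleotide has not been depleted, and in developmental genes they often extend over coding exons. MGO is a reactive dicarbonyl by-product of glycolysis that modifies arginine and lysine side chains, including those of histones.

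The central 300 bases of a few coding members are shown first, because they display the kinds of sequence on which the results turn. The first set was taken from the 4 strongest shared and the 4 strongest unshared members of last and of internal exons, among which the coding windows without UTR bases qualified, and it shows both shared ones and the 2 strongest unshared ones, with coding bases in capitals. The PRDM9 window is chr5:23527145-23527444 (+ strand), and the whole of it is coding sequence of the zinc finger array of PRDM9, a meiotic histone methyltransferase. The LRP1B window is chr2:140457490-140457789 (- strand), in which 162 bases belong to exon 61 of 91 of this endocytic receptor gene. Both overlapped an MGO peak. The KDM4C window is chr9:7165175-7165474 (+ strand), in which the 120 bases of a coding exon of this histone demethylase gene sit between intronic bases. The SLC14A2 window is chr18:45626823-45627122 (+ strand), in a urea transporter gene, with 165 coding bases. Neither of these overlapped an MGO peak.
PRDM9: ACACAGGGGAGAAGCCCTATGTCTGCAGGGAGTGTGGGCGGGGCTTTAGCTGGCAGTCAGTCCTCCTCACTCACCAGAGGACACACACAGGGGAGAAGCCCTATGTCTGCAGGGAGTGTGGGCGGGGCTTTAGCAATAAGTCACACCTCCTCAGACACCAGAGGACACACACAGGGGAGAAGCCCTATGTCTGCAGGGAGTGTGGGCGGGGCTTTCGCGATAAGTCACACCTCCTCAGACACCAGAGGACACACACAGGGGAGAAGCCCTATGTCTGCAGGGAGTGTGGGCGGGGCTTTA
LRP1B: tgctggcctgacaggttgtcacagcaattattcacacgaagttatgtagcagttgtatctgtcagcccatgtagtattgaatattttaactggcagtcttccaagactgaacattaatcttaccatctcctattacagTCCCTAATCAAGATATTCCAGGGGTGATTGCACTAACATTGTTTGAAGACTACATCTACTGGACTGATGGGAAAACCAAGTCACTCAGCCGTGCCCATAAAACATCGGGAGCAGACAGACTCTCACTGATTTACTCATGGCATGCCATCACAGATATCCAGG
KDM4C: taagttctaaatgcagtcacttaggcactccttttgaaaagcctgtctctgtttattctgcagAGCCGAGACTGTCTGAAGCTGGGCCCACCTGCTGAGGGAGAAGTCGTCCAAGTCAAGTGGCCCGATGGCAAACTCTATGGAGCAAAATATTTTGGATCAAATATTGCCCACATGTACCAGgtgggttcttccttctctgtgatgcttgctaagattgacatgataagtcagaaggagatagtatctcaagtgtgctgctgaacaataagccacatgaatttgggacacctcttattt
SLC14A2: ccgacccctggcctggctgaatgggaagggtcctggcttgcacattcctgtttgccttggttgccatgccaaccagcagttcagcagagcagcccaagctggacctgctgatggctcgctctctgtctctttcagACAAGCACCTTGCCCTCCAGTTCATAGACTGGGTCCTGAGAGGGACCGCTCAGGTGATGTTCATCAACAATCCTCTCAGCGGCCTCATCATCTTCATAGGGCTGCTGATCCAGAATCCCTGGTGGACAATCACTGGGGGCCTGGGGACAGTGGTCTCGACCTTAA

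The second set shows CpG-rich coding members, with each CG dinucleotide in capitals, and was chosen after the values had been seen. KLHL31, which encodes a kelch-like protein, is shown at chr6:53651769-53652068 (- strand) with 37 CG dinucleotides, and NR5A2, a nuclear receptor gene, at chr1:200039558-200039857 (+ strand) with 29. Both overlapped an MGO peak. AGRN, the gene of agrin, is shown at chr1:1040558-1040857 (+ strand) with 36 CG dinucleotides and did not. The KDM4C and LRP1B windows hold 3 CG dinucleotides each.
KLHL31: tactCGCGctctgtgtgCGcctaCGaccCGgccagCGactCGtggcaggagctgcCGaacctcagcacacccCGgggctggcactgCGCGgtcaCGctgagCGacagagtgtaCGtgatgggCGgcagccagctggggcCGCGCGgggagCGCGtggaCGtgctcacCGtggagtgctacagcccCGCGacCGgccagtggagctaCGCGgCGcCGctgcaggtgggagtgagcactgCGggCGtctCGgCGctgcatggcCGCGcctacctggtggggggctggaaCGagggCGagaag
NR5A2: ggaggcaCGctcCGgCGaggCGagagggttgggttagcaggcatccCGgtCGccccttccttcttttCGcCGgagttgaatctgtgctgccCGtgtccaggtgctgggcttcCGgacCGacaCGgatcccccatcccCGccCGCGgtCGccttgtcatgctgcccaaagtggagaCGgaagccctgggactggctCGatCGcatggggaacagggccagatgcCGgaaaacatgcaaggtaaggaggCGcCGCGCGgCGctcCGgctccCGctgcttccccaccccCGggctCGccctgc
AGRN: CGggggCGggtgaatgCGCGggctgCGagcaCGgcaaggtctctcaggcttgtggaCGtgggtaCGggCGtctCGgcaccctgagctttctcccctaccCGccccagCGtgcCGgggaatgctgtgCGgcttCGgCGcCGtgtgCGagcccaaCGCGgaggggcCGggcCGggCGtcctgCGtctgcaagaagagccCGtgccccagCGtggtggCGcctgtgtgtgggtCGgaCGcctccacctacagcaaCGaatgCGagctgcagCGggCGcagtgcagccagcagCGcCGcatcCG

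Last exons held most of the regions. Of the 740 peaks, 576 had their midpoint in the last exon of a transcript with several exons, 129 in an internal exon and 35 in a first or single exon only. They belonged to 715 genes, of which 695 had 1 peak and 20 had 2 or more. The peaks were assigned to protein-coding genes in 548 cases and to lncRNA genes in 192, of which 5 also lay in an exon of a protein-coding gene and are counted with it by position. By position, 187 midpoints were in coding sequence, 281 in a 3' UTR, 6 in a 5' UTR, 79 in noncoding transcripts of protein-coding genes and 187 in lncRNA exons.

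Per Mb of exon outside the 1000 bp around starts, last exons carried 8.40 control peaks and internal exons 6.37, beside 7.14 in introns and 7.77 between genes. Exons as a whole carried 7.82 control peaks per Mb, so distal peaks were about as dense over exons as elsewhere. Peaks in last exons lay inside them, with a median of 100% of the peak in exonic sequence, while peaks over internal exons were 42.4% exonic at the median. The midpoints in last exons were spread along the exon, with 27.3%, 27.8%, 24.5% and 20.5% of them in 4 successive parts of equal length from its 5' end, and 15.5% lay within 200 bp of the exon end.

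The exonic peaks were mostly weak calls. Their median −log10 p, the significance of the pile-up over background, was 4.16 (from 3.09 to 57.3), their median fold enrichment over background was 2.87 and their median width was 501.5 bp. Intronic distal peaks had a median −log10 p of 4.18 and intergenic ones of 4.32, so that the 3 kinds of distal peak differed little in strength. The exonic peaks were richer in G and C, with a median GC content of 50.4% against 43.6% in introns and 45.2% between genes, and they held 1.80 CpG dinucleotides per 100 bp against 1.00 and 1.22.

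Of the 740 exonic control peaks, 198 (26.8%, 95% Wilson interval 23.7 to 30.1) overlapped an MGO peak and 542 did not. The background is 49.7% of all control peaks and 24.3% of all distal control peaks. Intronic distal peaks were shared in 20.5% (19.8 to 21.3) of 10712 cases and intergenic ones in 28.5% (27.5 to 29.4) of 9120. The exonic share exceeded the intronic one by 6.25 percentage points (Newcombe interval 3.09 to 9.64), and it differed from the intergenic one by −1.70 percentage points (−4.90 to 1.73). Other settings moved this second difference both ways. It was −4.61 (−8.52 to −0.228) over 5000 bp from every start and −4.01 (−7.51 to −0.231) with protein-coding genes only. With a −log10 q of at least 5 in both lists it was −18.1 (−26.1 to −7.16), and at equal GC content −4.84. At equal −log10 p it was 0.874, at equal width 0.568 and with equal numbers of peaks 0.0997 (−5.57 to 5.83). At equal GC content, the excess over introns was 2.60 percentage points, beside 6.18 at equal −log10 p. Over 5000 bp from every start it was 2.96 percentage points (−0.932 to 7.31). With only as many control peaks kept as there were MGO peaks, the strongest ones, the exonic share was 47.4%.

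**Figure D1:**
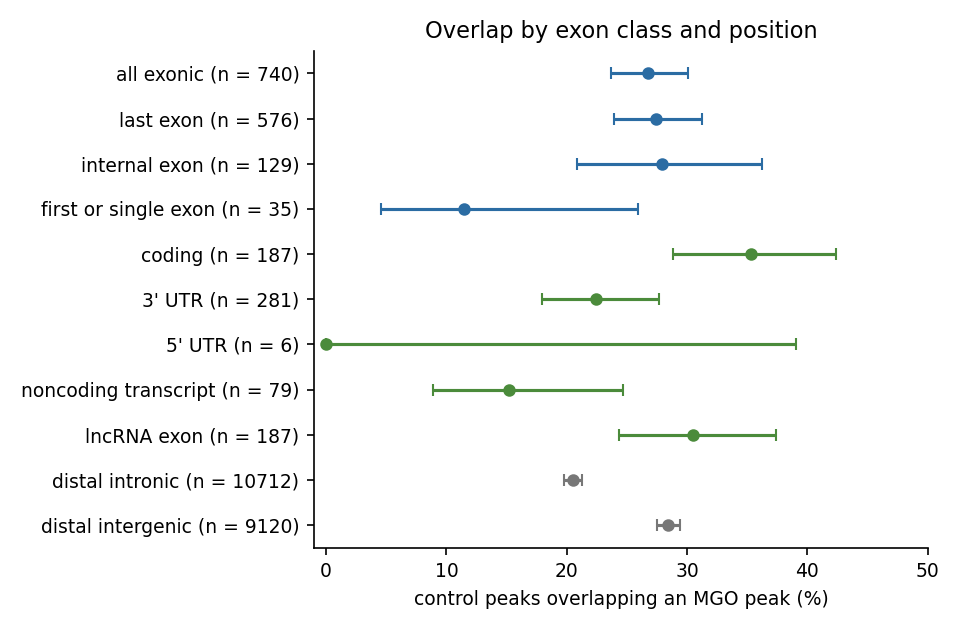
Percentage of distal control peaks that overlap an MGO peak (horizontal axis) for each exon class and position of the midpoint (vertical axis, n peaks in brackets), with 95% Wilson intervals. Last and internal exons lie at 27.4% and 27.9%, coding positions at 35.3% and 3' UTRs at 22.4%, and the intronic and intergenic peaks are drawn at the bottom for comparison.

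Last and internal exons had nearly the same share. An MGO peak overlapped 158 of the 576 last-exon peaks (27.4%, 23.9 to 31.2) and 36 of the 129 internal-exon peaks (27.9%, 20.9 to 36.2), a difference of −0.476 percentage points whose interval runs from −9.47 to 7.49. Differences of up to these bounds could not be told from 0 with this many internal exons. With a −log10 q of at least 2 in both lists, the limit of the methods, the difference was −9.79 percentage points (−23.8 to 3.19), and with at least 5 it was 14.1 (−13.0 to 28.2). Of the 35 peaks in first or single exons, 4 were shared (11.4%, 4.54 to 26.0).

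Peaks with a coding midpoint had a larger share. Of 187 peaks with a coding midpoint, 66 overlapped an MGO peak (35.3%, 28.8 to 42.4), against 132 of 553 with a noncoding one (23.9%, 20.5 to 27.6), a difference of 11.4 percentage points (3.94 to 19.3). Over 5000 bp from every start the difference was 6.25 percentage points (−2.73 to 16.2). Within last exons the shares were 41.8% of 91 coding and 24.7% of 485 noncoding peaks, a difference of 17.0 percentage points (6.61 to 27.9). Within internal exons they were 28.4% of 95 and 26.5% of 34, a difference of 1.95 percentage points (−16.6 to 17.3). Among noncoding positions, lncRNA exons were shared in 30.5% (24.3 to 37.4), 3' UTRs in 22.4% (17.9 to 27.6) and noncoding transcripts of protein-coding genes in 15.2% (8.91 to 24.7). None of the 6 peaks in a 5' UTR was shared, which allows a share of up to 39.0%. Among the 72 members left at a −log10 q of at least 5 in both lists, the difference between coding and noncoding positions was −3.02 percentage points (−19.9 to 18.7), so its direction there could not be determined.

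GC content moved with the coding difference. At equal GC content the excess of coding over noncoding positions was 3.66 percentage points, and at equal −log10 p it was 6.70. Coding members that were shared had a median GC content of 64.9% and 7.63 CpG dinucleotides per 100 bp, whereas coding members that were not had 53.0% and 2.14.

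CpG-rich exonic peaks were shared more often than the other exonic peaks. Peaks were called CpG-rich at a GC content of at least 50% and an observed to expected CpG ratio of at least 0.6, a definition adopted after the data had been seen. Of the 121 CpG-rich exonic peaks, 73 overlapped an MGO peak (60.3%, 51.4 to 68.6), against 125 of 619 others (20.2%, 17.2 to 23.5), a difference of 40.1 percentage points (30.6 to 48.9) that was 22.4 at equal −log10 p. Intronic peaks were shared in 63.7% of CpG-rich and 18.3% of other cases, and intergenic ones in 68.8% and 24.3%. Within each kind of sequence, exons and introns were close, with differences of −3.39 percentage points (−13.2 to 5.89) in CpG-rich peaks and 1.89 (−1.18 to 5.32) in the others. The exonic share was below the intergenic one in both kinds. The intergenic intervals ran from 65.7 to 71.9 in CpG-rich peaks and from 23.4 to 25.2 in the others, and no interval was computed for these differences.

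With peaks divided in this way, coding and noncoding positions were compared again. Of 58 CpG-rich coding peaks, 39 were shared (67.2%, 54.4 to 77.9), and of 63 CpG-rich noncoding peaks, 34 (54.0%, 41.8 to 65.7), a difference of 13.3 percentage points (−4.10 to 29.5). Among peaks that were not CpG-rich, 27 of 129 coding (20.9%) and 98 of 490 noncoding peaks were shared, a difference of 0.930 percentage points (−6.26 to 9.41). Last and internal exons were again near each other, at 59.8% of 92 and 64.0% of 25 CpG-rich peaks.

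**Figure D2:**
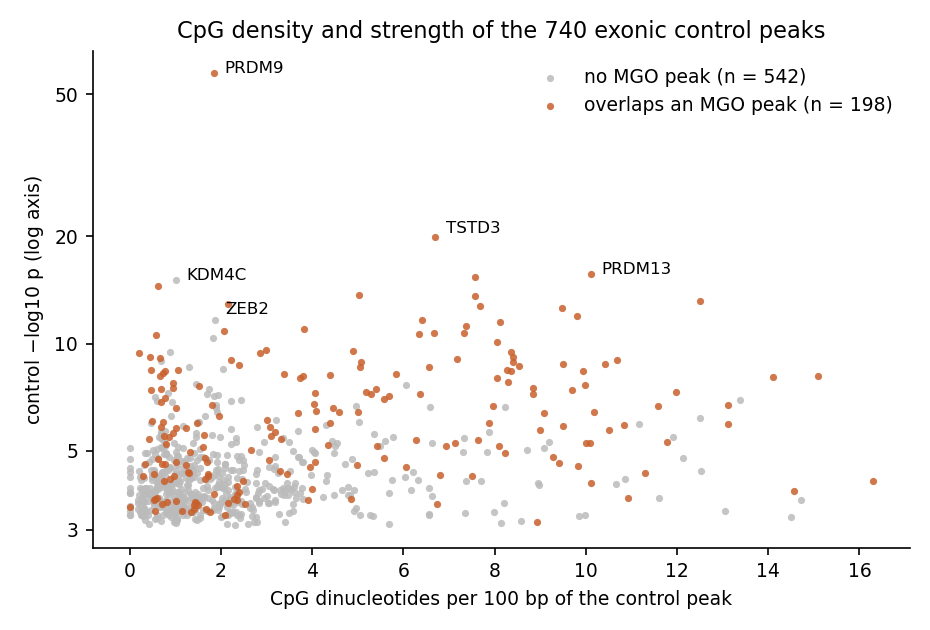
Control −log10 p (vertical axis, log scale) against CpG dinucleotides per 100 bp (horizontal axis) for the 740 exonic control peaks, 1 point per peak, in orange for the 198 that overlap an MGO peak and in grey for the 542 that do not. Orange points dominate at high strength and high CpG density, and PRDM9 and KDM4C stand out at few CpG dinucleotides.

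Strong control peaks were shared most often, while the weaker 3 of 5 groups differed little. In 5 equal groups of exonic peaks ranked by control −log10 p, from weakest to strongest, 10.1%, 11.5%, 12.8%, 27.0% and 72.3% overlapped an MGO peak. The strongest exceeded the weakest group by 62.2 percentage points (52.4 to 69.8). Of the 25 exonic peaks with a −log10 p of at least 10, 22 were shared, including all 14 that were CpG-rich. Shared members had a median −log10 p of 5.88 and a median width of 714 bp, and unshared ones 3.94 and 455.5 bp.

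Wider peaks were shared more often as well. In 5 groups by width, from narrowest to widest, the shares were 9.46%, 12.8%, 23.6%, 34.5% and 53.4%. By GC content they were 19.6%, 18.9%, 18.9%, 25.7% and 50.7%, so that the richest group stood above the others. With the members cut into 3 groups, the widest exceeded the narrowest by 37.4 percentage points, or 20.9 at equal −log10 p, and the GC-richest group exceeded the poorest by 24.1, or 11.9 at equal −log10 p.

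In groups cut over all distal peaks, the strongest exonic peaks were shared in 73.3% (65.3 to 80.1), intronic ones in 54.9% (52.6 to 57.1) and intergenic ones in 67.6% (65.6 to 69.6). In the next group the shares were 29.6%, 24.3% and 31.5%. The gap between exons and introns was widest among the strongest peaks, whose median GC content was 57.7% over exons and 45.1% over introns.

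**Figure D3:**
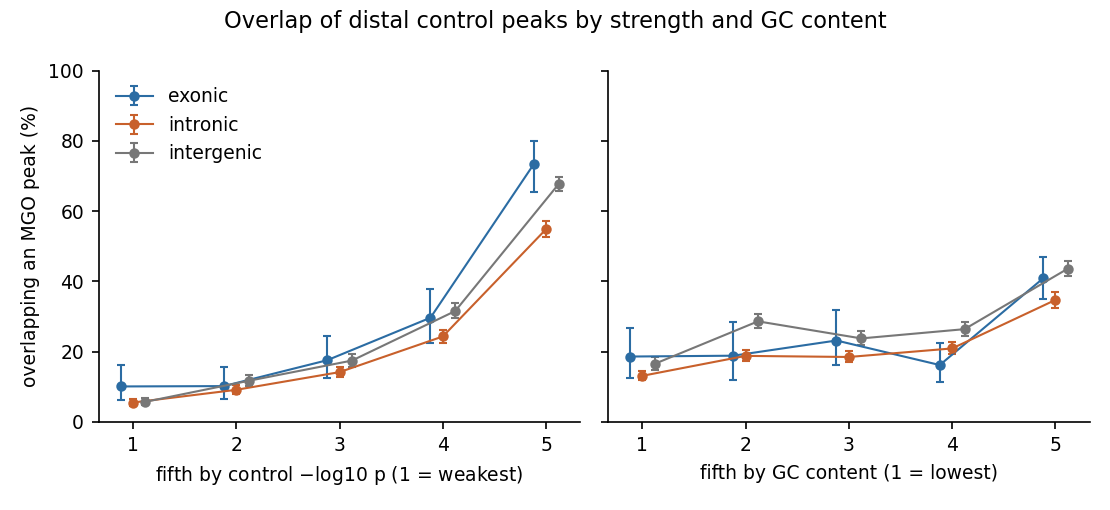
Percentage of distal control peaks overlapping an MGO peak (vertical axis) in 5 groups of equal size cut over all distal peaks by control −log10 p (left) and GC content (right), for exonic, intronic and intergenic peaks, with 95% Wilson intervals. The shares climb with strength in each kind of peak, and exonic peaks reach 73.3% in the strongest group.

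Among last-exon members, the strongest shared peak was that of PRDM9, at chr5:23526779-23527810 in the last exon of this gene. Its −log10 p was 57.3 in control and 40.9 under MGO, its fold enrichment 5.03 and 4.96, and its width 1032 and 1105 bp. It was the strongest of all 740 peaks, and it was slightly wider under MGO. It is also a tandem repeat, as the printed window shows, in which 84.9% of its 12-mers occur more than once and 93.1% of its bases equal the base 84 positions further on, the length that encodes 1 zinc finger. The part of the repeat in the height of the peak was not tested.

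A pair of shared last-exon peaks lay near each other on chromosome 6. The peak of TSTD3 (chr6:99588525-99589509), in a noncoding transcript of this gene of a rhodanese domain protein, had a −log10 p of 19.8 in control and 14.7 under MGO. The peak of PRDM13 (chr6:99613535-99614996), a transcription factor gene of the developing nervous system, lay in its coding last exon with a −log10 p of 15.7 and 7.02. PRDM13 kept its width, at 1462 and 1507 bp, while its fold enrichment was 4.18 and 3.10. The peak of NPBWR1 (chr8:52941076-52942038), a neuropeptide receptor gene, went the other way, with a −log10 p of 15.4 in control and 17.3 under MGO.

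The 4 strongest shared internal-exon peaks were all smaller under MGO. They were picked by their high control −log10 p, a choice that by itself favours lower values in the other list. CLCN1, the chloride channel gene of skeletal muscle, had a peak of 1153 bp over its exon 17 (chr7:143345022-143346174) in control and of 354 bp under MGO, with a −log10 p of 11.0 and 6.54. LINC03004, a lncRNA gene, had a peak of 1050 bp (chr6:137665127-137666176) and 383 bp, with a −log10 p of 10.6 and 4.12. A RefSeq start of that gene lies inside this peak. LRP1B had 673 bp (chr2:140457304-140457976) and 376 bp, with a −log10 p of 9.17 and 4.38. Its MGO peak began at position 140457654, outside the exon, whose highest position on the chromosome is 140457651. The gene lies on the - strand, so this is the 5' side of the exon. DEF6, which encodes a guanine nucleotide exchange factor of lymphocytes, had 877 bp (chr6:35317951-35318827) and 398 bp, with a −log10 p of 9.03 and 5.29.

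Only 3 of the 25 strongest exonic peaks had no MGO peak, and they lay in KDM4C, ZEB2 and HS1BP3. The KDM4C peak (chr9:7164732-7165918) was 1187 bp wide with a −log10 p of 15.1 and a fold enrichment of 5.08, and 10.1% of it was exonic. The nearest MGO peak was 374719 bp away. The ZEB2 peak (chr2:144461120-144461814), in a single-exon noncoding transcript of this transcription factor gene, had a −log10 p of 11.7, and the nearest MGO peak lay 11853 bp away. The peaks in KDM4C, ZEB2 and HS1BP3 held 1.01, 1.87 and 1.82 CpG dinucleotides per 100 bp. The median was 1.80 over all members and 1.49 over unshared ones, so only KDM4C lay below both.

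HS1BP3 carried 3 peaks in 3' UTRs, of which the strongest (chr2:20614376-20615201) had a −log10 p of 10.4, and none of the 3 was shared. The other unshared last-exon peaks of highest strength lay in PTPN14 (chr1:214531421-214532159, −log10 p 8.92), a tyrosine phosphatase gene, in MAPK10 (chr4:86026414-86027260, 8.61), a stress-activated kinase gene, and in IRF4 (chr6:408701-409044, 8.46), a lymphocyte transcription factor gene. Among internal exons they were SLC14A2 (chr18:45626520-45627425, 9.49), ABCA1 (chr9:104810663-104811071, 6.96), which encodes a cholesterol exporter, and LIN7C (chr11:27499256-27499677, 6.26), which encodes a scaffold protein. The distance to the nearest MGO peak ranged from 5670 bp in PTPN14 to 339410 bp in SLC14A2 among these genes.

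The distance from an unshared peak to the nearest MGO peak was measured for exonic members only, so there is no background of other distal peaks to set beside it. Of the 542, 5 had an MGO peak within 1000 bp, 30 within 5000 bp and 101 within 10000 bp, and the median distance was 26834.5 bp.

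Of the 20 genes with 2 or more exonic peaks, 11 had some shared and some unshared peaks, 9 had none shared and 0 had all of them shared. The share of 26.8% over all members is counted per peak, so it is not a like measure for these counts of genes. NFIA, a transcription factor gene, had 4 peaks in a single-exon noncoding transcript, with a −log10 p from 3.21 to 5.57, and none was shared. KDM2B, a histone demethylase gene whose protein binds unmethylated CpG, had 3. The shared one (chr12:121466955-121467918) held 14.1 CpG dinucleotides per 100 bp and had a −log10 p of 8.03 in control and 7.35 under MGO, while the unshared ones held 2.97 and 2.26. XACT, a lncRNA gene of the X chromosome, had 3 peaks in its last exon of 347300 bp, of which 1 was shared, with a −log10 p of 4.31 and 4.85.

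Some of the strongest of the 58 CpG-rich coding peaks were looked up after the values had been seen, and their −log10 p is given. Besides PRDM13 they were NR5A2 (13.6 in control and 7.27 under MGO), KLHL31 (12.8 and 15.4), OTP (12.6 and 9.16), a homeodomain gene, and GRIK4 (11.9 and 6.90), a glutamate receptor gene. All of these were shared, and KLHL31 alone of them had the higher value under MGO. As an example of the 19 that were not shared, the CpG-rich coding peak of AGRN (chr1:1040524-1040891) had a −log10 p of 6.19.

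Gene groups gave small counts. The 7 peaks in genes of the FOX, LHX, NKX, PAX and TBX families (FOXB1, FOXP2, FOXP4, LHX5, NKX6-3, PAX8 and TBX21) had 0 shared, which allows up to 35.4%, and their −log10 p lay between 3.62 in FOXP4 and 5.44 in TBX21. Chromatin enzyme genes had 11 peaks with 2 shared, in HDAC2 and KDM2B (18.2%, 5.14 to 47.7). Protocadherin genes, which encode cell adhesion proteins, had 5 with 2 shared, and C2H2 zinc finger genes named ZNF or ZBTB had 5 with 2 shared, in ZBTB7B and ZNF800. The single collagen gene, COL11A1, had 1 shared internal-exon peak with a −log10 p of 5.46 in control and 5.49 under MGO. HOX genes and the genes of enzymes acting on MGO or its adducts had 0 members. Beside the share of all exonic peaks, none of these counts stood apart beyond its interval.

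Motifs were searched on both strands as exact letters, and a match is no evidence of binding. The CTCF core motif occurred in the central 300 bp of 8.78% of exonic peaks (6.95 to 11.0), against 4.93% of intronic and 5.90% of intergenic peaks and 5.50% of all distal ones. CTCF is the main insulator protein of vertebrates. The motif was found in 10.1% of shared and 8.30% of unshared members, whose intervals overlap. The GC box, GGGCGG, occurred in 35.9% (29.5 to 42.7) of shared and 13.5% (10.9 to 16.6) of unshared members, and in 11.0% of all distal peaks. The CTCF core and the GC box are rich in G and C. Median GC content was higher in exonic than in other distal peaks, and was 57.8% in shared and 48.9% in unshared members. Motif counts were not compared at equal GC content. The AP-1 motif, TGACTCA or TGAGTCA, was found in 6.08% of members and 6.48% of all distal peaks. The ETS motif, searched as a single exact string longer than its common core, occurred in 3 members and the NRF1 motif in 5, of which 4 were shared.

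In last exons, the polyadenylation signal AATAAA on the gene strand was found in 15.2% (10.4 to 21.6) of shared and 20.8% (17.2 to 24.96) of unshared peaks. Shares fell with length, from 31.9% (25.2 to 39.4) in last exons under 1000 bp to 19.4% (12.9 to 28.1) in those of 5000 bp or more. They were 29.3% and 26.5% between, and the intervals of neighbouring length groups overlap. No interval was computed for the difference between the shortest and the longest group.

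All 198 shared members formed pairs in which 1 control and 1 MGO peak overlapped only each other. The MGO peak was narrower in 139 pairs (70.2%, 63.5 to 76.1), beside 68.7% of the pairs of all control peaks, so the exonic pairs were near the background. The median width was 714 bp in control and 521.5 bp under MGO, and the median ratio was 0.801 (quartiles 0.634 and 1.04). By class, the MGO peak was narrower in 105 of 158 last-exon pairs, 31 of 36 internal-exon pairs and 3 of 4 others. Fold enrichment was also lower under MGO in 139 pairs, with a median ratio of 0.940, beside 1477 of 2189 intronic and 1676 of 2579 intergenic pairs (median ratios 0.930 and 0.941), and the median −log10 p was 5.88 in control and 4.88 under MGO. An MGO peak covered a median of 69.4% of the control peak, at least 50% of it in 148 pairs and all of it in 18.

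**Figure D4:**
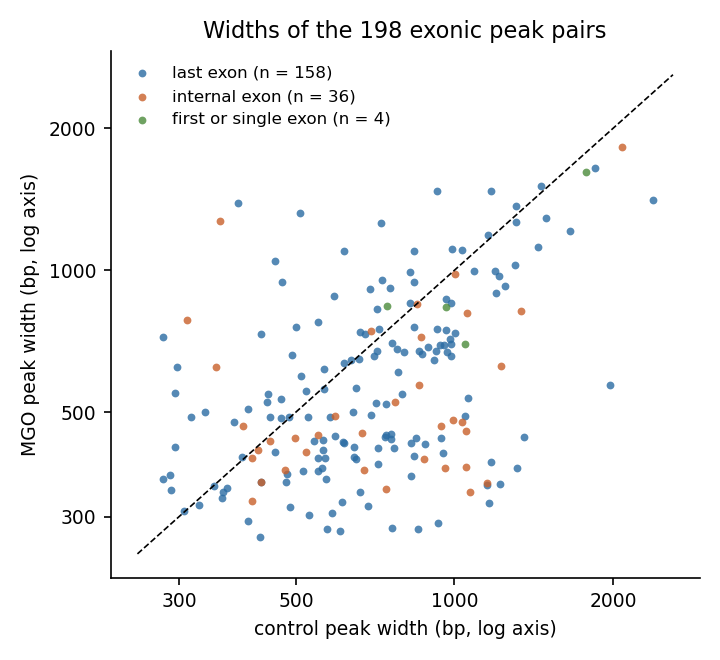
Width of the MGO peak (vertical axis) against width of the control peak (horizontal axis) for the 198 exonic pairs, both in bp on log scales, 1 point per pair, coloured by exon class, with the line of equal width dashed. More points lie below the line (139) than above it (59).

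The pairs that narrowed most were those of the lncRNA genes KIAA0087 (1165 to 320 bp, a ratio of 0.275), ENSG00000287749 (1221 to 352 bp, 0.288) and LINC02840 (1317 to 380 bp, 0.289). Those that widened most lay in SYTL4 (388 to 1391 bp, 3.59), which encodes a protein of granule exocytosis, STARD3NL (358 to 1271 bp, 3.55) and GGCX (510 to 1321 bp, 2.59), the vitamin K-dependent carboxylase gene. The control −log10 p of these 6 pairs lay between 3.65 and 4.59.

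Counted by the same rule, the MGO list held 334 distal exonic peaks against 740 in control, a ratio of 0.451 (0.395 to 0.514). The ratio was 0.439 (0.377 to 0.510) in last exons and 0.496 (0.362 to 0.675) in internal exons, beside 0.394 (0.380 to 0.408) in introns and 0.505 (0.488 to 0.524) between genes. Per Mb, last exons held 3.69 and internal exons 3.16 MGO peaks. The interval of the exonic ratio overlaps those of introns and of intergenic sequence, by little in the case of introns. The ratios were not compared directly, so the overlap does not settle whether they differ. On the same chromosomes the whole MGO list held 22379 peaks and the control list 35515. Within 1000 bp of a start the lists held 13216 and 14943 peaks, so they differed less there than in distal sequence.

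**Figure D5:**
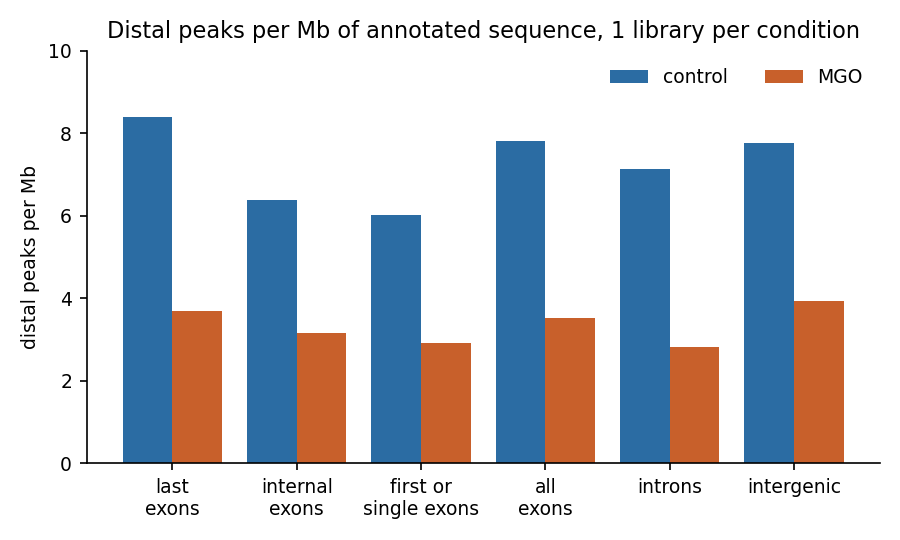
Distal peaks per Mb (vertical axis) in exon classes, introns and intergenic sequence (horizontal axis) for the control and the MGO list, 1 library per condition, without error bars. The MGO bar is lower in each class, at 3.69 against 8.40 peaks per Mb in last exons.

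Sharing was less frequent where the gene's own promoter had a control peak. Exonic peaks of genes with a control peak at a start were shared in 23.8% of 475 cases and those of genes without one in 32.1% of 265, a difference of −8.29 percentage points (−15.2 to −1.60). This difference was not computed at equal −log10 p, GC content or CpG content. By distance to the nearest start, the shares were 26.8% from 1000 to 2000 bp, 34.0% up to 5000 bp, 23.5% up to 10000 bp, 23.4% up to 20000 bp, 19.3% up to 50000 bp and 31.6% beyond. Near the limit of the rule, 18 of 67 exonic peaks between 1000 and 1500 bp from a start were shared (26.9%), and 34 of 90 between 500 and 1000 bp, just outside the rule (37.8%).

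A few members lay near starts of annotations that the rule did not use. Of the 714 members on the chromosomes of the RefSeq promoter table (GRCh38.p14), 14 lay within 1000 bp of a RefSeq start. Of these, 10 were shared (71.4%, 45.4 to 88.3), among them OTP, PITX3, KCNH2 and KDM2B. The share was 25.9% (22.8 to 29.2) in the other 726 members, counting those on chromosomes outside that table. Within 1000 bp of a start of another gene type in GENCODE lay 24 members, of which 5 were shared (20.8%, 9.24 to 40.5), beside 27.0% of the other 716.

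Repeated sequence was rare among the members. At least 20% of the 12-mers occurred more than once in 15 peaks, of which 7 were shared (46.7%, 24.8 to 69.9), beside 26.3% of the other 725. Besides PRDM9 these included ITGB1BP1, where 99.3% of bases equalled the base 112 positions on, and HRNR, TCHH and LORICRIN, genes of proteins of the skin and hair. In CHFR, 97.5% of bases equalled the base 35 positions on, and this peak was not shared.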

How the data were processed

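The authors mapped paired-end reads of 293T ATAC-seq libraries to GRCh38.p12 with BWA 0.7.15, filtered out reads that mapped to mitochondria or to several places with Picard (2.16.0 in the submitters' processing notes), equalized depth by random subsampling, and called broad peaks with MACS2 outside blacklisted regions. The deposited lists, 1 for each condition, give each peak a score, a fold enrichment over background (a ratio), a −log10 p-value and a −log10 q-value. The weakest −log10 q was 1.01 in both lists, and all deposited peaks were used, although the methods set a q-value of 0.01. They hold no read counts, so the reads behind each peak are unknown and the precision given is counting error alone.

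Peaks were classed with GENCODE 44. Where a midpoint lay in exons of several kinds (54 peaks), a last exon took precedence. GC content, CpG and motifs were read from GRCh38. Shares carry 95% Wilson intervals, differences Newcombe intervals and count ratios exact binomial intervals. For differences at equal strength, width or GC content, Mantel-Haenszel weights over 5 groups were used. No test between the conditions was made, with 1 library of each. The labels gave the groups. The regions, gene lists and comparisons were chosen with earlier results of these data known. Named regions were the 4 strongest shared and unshared of each exon class, the 5 genes with most peaks, and the 3 most narrowed and widened pairs; others are named as chosen later. A few items are not reported here. Alternatives were stricter q-values, equal numbers of peaks, larger overlaps, larger distances from starts, other exon sets, autosomes only, 1 peak per gene and weighting. Python 3.11.15, numpy 2.4.6, pandas 2.3.3, scipy 1.17.1, matplotlib 3.10.9 and bedtools 2.31.1 were used, and overlaps were checked against bedtools and on simulated lists.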

Additional observations from a re-analysis of the deposited data

How the results depend on the processing

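Of 136 values recomputed under other settings, 99 stayed within the 95% interval of the value reported (for counts of peaks, within 1.5 times), 36 moved outside it, and 1 difference whose interval excluded 0 changed sign. Differences whose interval included 0, between last and internal exons and against intergenic peaks, changed sign in 10 cases. With a −log10 q of at least 2 in both lists, 346 members were left, of which 30.9% were shared. The internal-exon share was then 39.3%, the difference between last and internal exons −9.79 percentage points and that between the widest and narrowest members 47.9. With at least 5, 72 members were left and the sign of the coding difference changed, to −3.02 percentage points. The shares were 19.4% of all, 21.8% of last-exon and 7.69% of internal-exon members, and the differences were 14.1 percentage points between last and internal exons, 2.67 against introns and −18.1 against intergenic peaks. The median width ratio was 0.970 and the ratio of peak numbers 0.222. With equal numbers of peaks, the shares were 47.4%, 47.2% in last and 52.8% in internal exons, and the excess over introns was 11.9 percentage points.

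With at least 50% of the control peak overlapped, the shares were 20%, 20.8% in last and 18.6% in internal exons, with a median width ratio of 0.878, and with reciprocal overlap they were 18.6%, 19.4% and 17.1%. Over 5000 bp from a start, 420 members were left, of which 23.3% were shared (22.8% in last exons), and the excess over introns was 2.96 percentage points. With at least 50% of the peak in exons, the coding difference was 19.6 percentage points. At equal −log10 p the GC difference was 11.9 and the width difference 20.9, and at equal GC content the excess over introns was 2.60 and the coding difference 3.66. Ranked by fold enrichment, the strongest exceeded the weakest group by 41.9 percentage points. At equal −log10 p and GC content together, a setting chosen after seeing the data, the coding difference was 2.64 percentage points. Leaving out members with repeated 12-mers, also chosen after seeing the data, moved none of the 4 values recomputed outside its interval.

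No paired analysis was possible because 1 library was analysed for each condition. No replicate was left out for the same reason, and the spread between libraries is unknown. Peak lists without read counts do not show how far a peak that is missing from the MGO list fell below the calling limit.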

Other observations

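The MGO list held 129 distal exonic peaks that overlapped no control peak, out of 334. They had a median −log10 p of 3.78, beside 4.90 for the 205 MGO exonic peaks that overlapped a control peak, and a median width of 389 bp beside 501 bp. Of the 129, 93 lay in last exons, 24 in internal exons and 12 in first or single exons, and 40 had a coding midpoint, 40 a midpoint in a 3' UTR and 44 in a lncRNA exon. Their median GC content was 51.9%, against 58.3% in the overlapping ones. The share of MGO exonic peaks that overlapped a control peak was 61.4% (56.1 to 66.4), beside 52.5% in introns and 56.5% between genes.

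The strongest of the 129, chosen after the values had been seen, lay over a coding internal exon of CAMK2D, a calcium-dependent kinase gene, at chr4:113547463-113547828, with a −log10 p of 6.91 and a fold enrichment of 3.63. It was followed by peaks in the 3' UTRs of NAP1L1 (chr12:76037234-76037579, 6.16), a histone chaperone gene, and of LEMD2 (chr6:33771552-33771863, 5.80), which encodes a protein of the inner nuclear membrane.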
